A study of Mus musculus with 12 samples.

Results

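Tubulins are the subunits of microtubules, and the tubulin-modifying enzymes of the Ttll and Agbl families add amino acids to their tails or remove them. The genes described here were all entries of the sperm and testis count tables whose symbol starts with Tuba, Tubb, Tubg, Tubd, Tube, Ttll or Agbl, without pseudogenes named with the ending -ps. This gave 43 gene symbols, with 43 entries among 51826 in the sperm table and 46 among 23502 in the testis table. The 3 additional testis entries, Tuba3b-2, Tubb5-2 and Tubb5-3, carry a known symbol with an added number whose meaning was not given, and they were kept as separate entries. The choice by first letters also took in the gamma-tubulin ring genes Tubgcp2 to Tubgcp6. RNA-seq was available from 12 libraries in 4 groups of 3 biological replicates, all from mice on a C57BL/6J background. Mature sperm came from the cauda epididymis of P56 males that were wild type (WT) or carried a CRISPR/Cas9 knockout of Xap5l (Xap5l KO). Whole testes came from P16 males that were labelled WT or carried floxed Xap5 deleted in male germ cells by Stra8-EGFPCre (Xap5 cKO). The authors name Xap5fl/Y males as controls when describing the appearance of the cKO. Whether the WT testes carried the floxed gene was not stated. The Cre acts in germ cells, so the somatic cells of the cKO testis still carry an intact Xap5 gene. Xap5 and Xap5l are paralogous transcription factors, listed in the tables as Fam50a and Fam50b, and the comparisons ask which transcripts differ when one of them is absent from the male germ line.

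Microtubules are built from dimers of alpha- and beta-tubulin, and gamma-tubulin in its ring complex starts their growth. Delta- and epsilon-tubulin belong to centrioles and basal bodies. In the sperm flagellum, as in cilia, the glutamate-rich tails of alpha- and beta-tubulin carry side chains of glutamate, added by the glutamylases Ttll1, Ttll4 to Ttll7, Ttll9, Ttll11 and Ttll13, or of glycine, added by the glycylases Ttll3, Ttll8 and Ttll10. The cytosolic carboxypeptidases, encoded by the Agbl genes, take glutamates off again.

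The tails that these enzymes act on are shown first, as the last 60 coding bases with the stop codon. They are given 5′ to 3′ on the coding strand from the GENCODE annotation of GRCm38, with the glutamate codons in capitals. The isotypes were chosen because the results below turn on Tuba3a, Tuba3b and Tubb4b, and the other lines show the isotypes they stand beside.
Tuba3a (chr6:125278358-125278417, minus strand): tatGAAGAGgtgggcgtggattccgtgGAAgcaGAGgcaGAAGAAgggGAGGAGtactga
Tuba3b (chr6:145621328-145621387, plus strand): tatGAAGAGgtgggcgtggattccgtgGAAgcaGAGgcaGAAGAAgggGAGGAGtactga
Tuba8 (chr6:121226020-121226079, plus strand): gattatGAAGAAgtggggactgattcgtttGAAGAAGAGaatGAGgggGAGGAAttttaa
Tuba4a (chr1:75215622-75215681, minus strand): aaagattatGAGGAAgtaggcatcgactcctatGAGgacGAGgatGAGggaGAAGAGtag
Tubb4b (chr2:25222308-25222367, minus strand): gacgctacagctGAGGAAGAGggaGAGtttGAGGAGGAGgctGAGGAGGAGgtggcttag
Tubb5 (chr17:35834982-35835041, minus strand): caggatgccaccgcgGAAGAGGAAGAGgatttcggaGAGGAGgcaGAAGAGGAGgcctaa
The 60 bases of Tuba3a and Tuba3b were identical and held 8 glutamate codons, and their last sense codon was tac, for tyrosine. The tail of Tuba8 instead ended in ttt, for phenylalanine, and that of Tuba4a in gag, for glutamate, so neither encodes the final tyrosine that the ligase Ttl adds and the vasohibins remove. Tubb4b held 10 glutamate codons, the most of the 14 alpha- and beta-tubulin tails examined, and Tubb5 held 9. All these stretches lie within a single exon. Over the whole coding sequence, Tuba3a and Tuba3b were 97.0% identical, with 41 differing bases. On the annotated transcripts, 2.65% of the 150-base windows of Tuba3a also occur in Tuba3b, so most reads of that length can be told apart. The windows of Tuba1a, Tuba1b and Tuba1c occurred in any other gene more often, at 54.7%, 57.9% and 46.7%. Counts could be split among these and other genes depending on how multiple hits were treated, which was not stated. Gm49450, on the same strand, overlaps 26.2% of the exonic bases of Tuba1a and 22.7% of those of Tuba1b. For Tubb4b, 16.8% of windows also lie in the pseudogene Tubb4b-ps1.

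The promoters of 3 of the enzymes that differ in the testis comparison are shown as examples of windows that hold a searched motif. Each is the 250 bases before the RefSeq start on GRCm38.p6, 5′ to 3′ on the gene's strand. Capitals mark GGGCGGGG, or its reverse CCCCGCCC, in Ttll8 and Agbl2, and a match to the RFX X-box in Agbl3.
Ttll8 (chr15:88954419-88954668, minus strand): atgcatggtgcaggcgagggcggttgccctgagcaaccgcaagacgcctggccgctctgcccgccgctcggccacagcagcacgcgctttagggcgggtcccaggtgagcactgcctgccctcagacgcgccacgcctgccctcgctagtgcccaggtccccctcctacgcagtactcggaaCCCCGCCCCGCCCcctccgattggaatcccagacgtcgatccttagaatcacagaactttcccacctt
Agbl2 (chr2:90782477-90782726, plus strand): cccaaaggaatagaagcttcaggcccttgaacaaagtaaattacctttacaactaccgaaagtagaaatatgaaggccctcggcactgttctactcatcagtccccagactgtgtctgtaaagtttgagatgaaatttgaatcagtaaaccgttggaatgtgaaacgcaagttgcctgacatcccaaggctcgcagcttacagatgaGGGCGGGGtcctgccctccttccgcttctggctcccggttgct
Agbl3 (chr6:34780182-34780431, plus strand): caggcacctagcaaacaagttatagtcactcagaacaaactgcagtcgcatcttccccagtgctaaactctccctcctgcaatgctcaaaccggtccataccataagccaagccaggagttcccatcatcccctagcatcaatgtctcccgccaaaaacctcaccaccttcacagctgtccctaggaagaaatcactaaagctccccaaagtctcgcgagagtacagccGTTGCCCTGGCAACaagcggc
In Ttll8 both copies of the GC-rich motif overlap each other, and the X-box of Agbl3 begins 21 bases before the start. Some genes have several annotated starts. The other window of Agbl2 held no match, and of the 4 windows of Agbl5, which was also downregulated in testes, 1 held 2 copies of the GC-rich motif and the others none. Of the 43 genes, 37 had a window, with 42 windows in all. The GC-rich motif was present in 7 of the 42 windows (16.7%) and in 16.1% of all 32851 promoter windows. The X-box was searched with a fixed spacing between its left and right parts, so other spacings were neither counted nor put in capitals. The window of Ttll8 holds the fixed letters of both parts with 1 more base between them, in lower case. In the searched form, the X-box was present in 1 of the 42 (2.38%), against 1.8% of all windows. The cAMP response element TGACGTCA was also present in 1 (2.38%), that of Tubb2a, against 1.55%. These matches are a description of the letters in the window and not of binding.

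Library totals ranged from 32251198 to 52308452 counts. The counts of Xap5l were 574, 440 and 419 in the WT and 18, 23 and 8 in the Xap5l KO sperm libraries. Those of Xap5 were 819, 811 and 988 in the WT and 673, 616 and 651 in the Xap5 cKO testis libraries. The testis value includes somatic cells, and a count over the whole gene does not separate the deleted part. Levels of germ cell markers differed with genotype in both tissues. In sperm, 8 of 10 round spermatid markers were upregulated, with summed levels of 109 to 158 CPM (counts scaled to library size) in WT and 250 to 456 in Xap5l KO libraries. Of the 10 pachytene markers 5 were upregulated, with summed levels of 1390 to 2310 and 2770 to 3400 CPM. Leukocyte markers summed to 907 to 1000 CPM in WT and 223 to 602 CPM in Xap5l KO sperm, with 2 of 10 downregulated. General epithelium markers summed to 345 to 412 CPM in WT and 254 to 308 CPM in Xap5l KO sperm, and Leydig cell markers to 16.5 to 37.4 and 7.36 to 15.6 CPM. Sertoli cell markers summed to 687 to 784 CPM in WT and 1090 to 1350 CPM in Xap5l KO sperm. Nearly all of that sum was Clu, at 622, 703 and 737 CPM in WT and 1310, 1260 and 1050 CPM in Xap5l KO. The 9 tested Sertoli markers had a median log2 fold change of -0.47, with 0 upregulated and 1, Cldn11, downregulated. WT replicate 1 stood apart in erythroid markers, at 16300 CPM against 3300 and 5180 CPM in the other WT and 1210 to 4030 CPM in the KO libraries, and the calls without it are given below. Elongating spermatid markers, which define the contents of sperm, were abundant in every library, at 49000 to 135000 CPM. In testes, 7 of 10 pachytene markers were downregulated, with summed levels of 983 to 1940 CPM in WT and 212 to 284 in Xap5 cKO. WT replicate 3 was the lowest of the WT libraries. Of the leptotene and zygotene markers 8 of 10 were downregulated, at 2170 to 2580 CPM in WT and 1070 to 1470 in Xap5 cKO, and 4 of 10 spermatogonial markers, at 825 to 900 and 502 to 550 CPM. Sertoli cell markers summed to 6190 to 6620 CPM in WT and 10600 to 12200 in Xap5 cKO testes, with 1 of 10 upregulated. All of them but Rhox5 (-0.36) had positive log2 fold changes, of 0.46 to 1.14. Of the 8 tested leukocyte markers 7 were upregulated. Among elongating spermatid markers, Prm2 and Smcp had at most 3 counts in every testis library. The part of these differences in the results below was not tested.

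In sperm, 8 of the 42 tested genes were upregulated in Xap5l KO and 0 were downregulated, where a call required a fold change above 2 with an adjusted p-value under 0.05 (edgeR's quasi-likelihood F test, Benjamini-Hochberg adjustment over all 20945 tested genes). The 8 genes are 19.0% of those tested, and over all genes 7.59% were upregulated and 1.27% downregulated. They were 4 of 8 glutamylases (Ttll6, Ttll7, Ttll9 and Ttll13), 2 of 3 glycylases (Ttll3 and Ttll8), 1 of 5 carboxypeptidases (Agbl4) and 1 of 8 alpha-tubulins (Tuba3a). Positions are given as GRCm38 coordinates of the whole gene in the GENCODE annotation. No downregulated gene was found at an unadjusted p-value under 0.05 with the same fold change or with DESeq2 either. The median log2 fold change was 0.36 over the 42 genes and -0.08 over all genes. In bulk libraries, fewer cells of a type and less RNA per cell cannot be told apart.

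**Figure D1:**
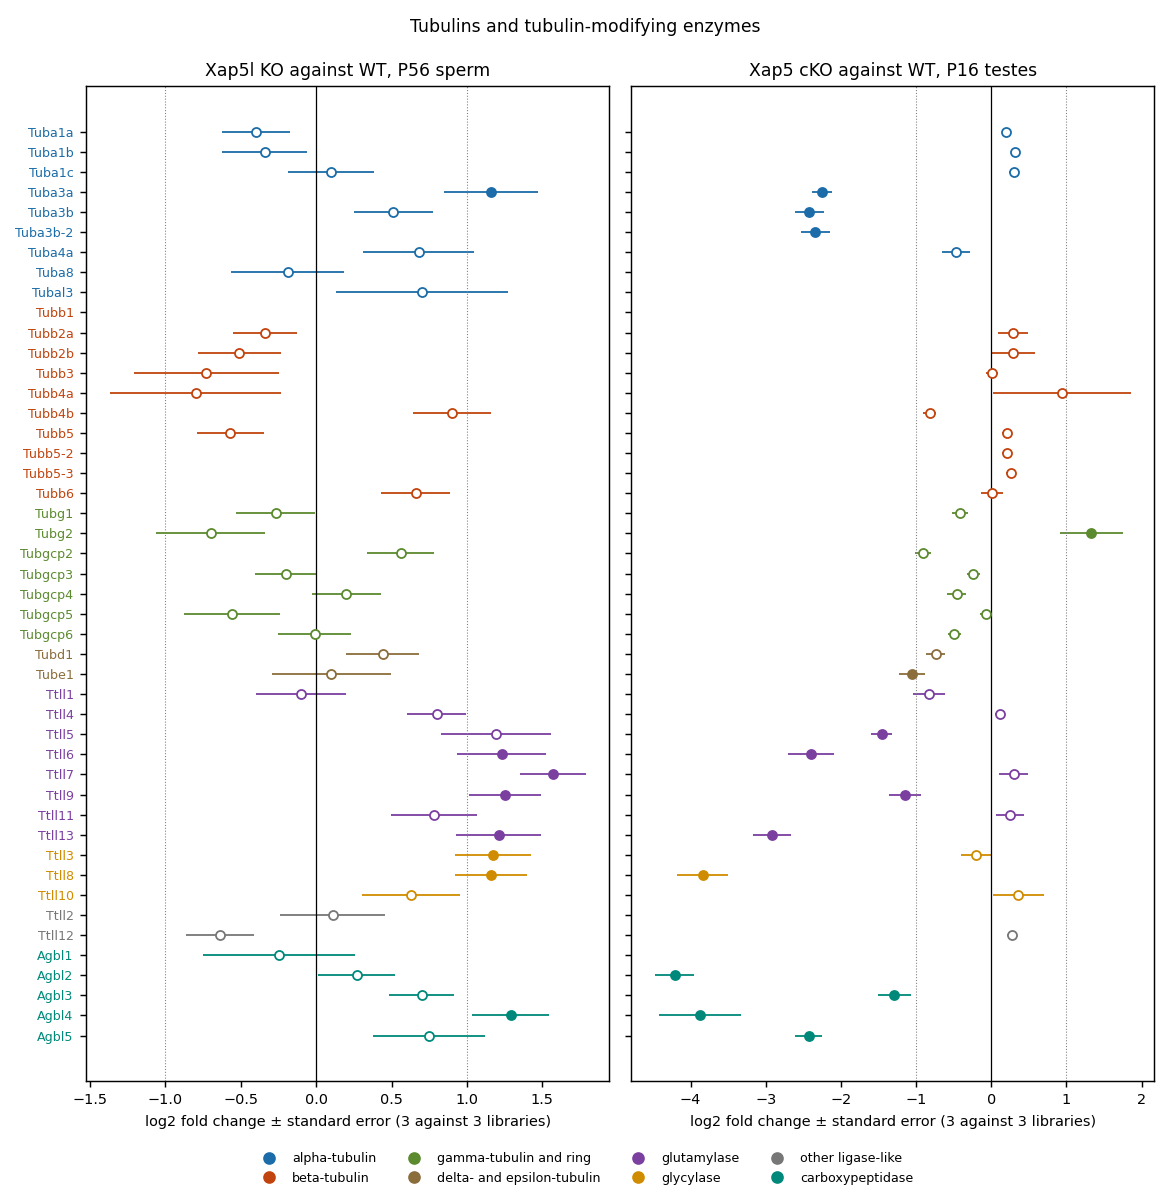
Log2 fold change with its standard error for every tested gene, in Xap5l KO against WT sperm (left) and Xap5 cKO against WT testes (right), 3 against 3 libraries, with colours for the classes. Filled points are called genes and dotted lines mark a fold change of 2, and the axes differ in range. The 8 filled points on the left are all above 1, and on the right 13 lie below -1 with Tubg2 alone above 1.

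Ttll7 (chr3:146852367-146984009, plus strand), a glutamylase that prefers beta-tubulin, showed the largest rise of the 42 genes. Its level was 11.6, 10.1 and 9.32 CPM in WT and 32.4, 35.4 and 24.6 CPM in Xap5l KO, so that every KO library lay above every WT library by more than the spread within either genotype. The log2 fold change was 1.57 (standard error, SE, 0.217, adjusted p = 0.0118, edgeR, Benjamini-Hochberg adjustment). Ttll9 (chr2:152962485-153008482, plus strand), a glutamylase of the sperm flagellum, stood at 21.5, 13.9 and 14.6 CPM in WT and 43.7, 42.3 and 32.3 CPM in Xap5l KO, with a log2 fold change of 1.25 (SE 0.239, adjusted p = 0.0172). The groups again did not overlap, and KO replicate 3 was the lowest of the KO libraries.

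Ttll6 and Ttll13 are related enzymes that lengthen glutamate chains on alpha-tubulin, and their coding sequences were 57.6% identical. Ttll13 (chr7:80246376-80260821, plus strand) had the highest level per kilobase of the glutamylases in sperm, with 119, 81.8 and 86.7 CPM in WT and 260, 257 and 148 CPM in Xap5l KO. For Ttll6 (chr11:96133786-96165451, plus strand) the levels were 30.2, 22.5 and 24.4 CPM in WT and 73.0, 73.4 and 35.1 CPM in Xap5l KO. The groups did not overlap in either gene, but in both KO replicate 3 sat between WT and the other KO libraries. The log2 fold changes were 1.21 for Ttll13 (SE 0.284, adjusted p = 0.029) and 1.23 for Ttll6 (SE 0.295, adjusted p = 0.0309).

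The glycylases Ttll3 and Ttll8 place the first glycine of a side chain, and Ttll10 lengthens the chain. Ttll3 (chr6:113389260-113414587, plus strand) was at 22.4, 13.3 and 15.9 CPM in WT and 43.2, 42.5 and 30.6 CPM in Xap5l KO, a log2 fold change of 1.17 (SE 0.252, adjusted p = 0.0218). Ttll8 (chr15:88890633-88954418, minus strand) was at 56.7, 40.8 and 39.5 CPM in WT and 106, 81.0 and 118 CPM in Xap5l KO, a log2 fold change of 1.16 (SE 0.24, adjusted p = 0.0202). In Ttll8, alone among the 8 upregulated genes, KO replicate 3 was the highest library. Ttll10, the glycylase with the highest level per kilobase in WT sperm, had 102, 55.0 and 45.2 CPM in WT and 127, 107 and 79.1 CPM in Xap5l KO. WT replicate 1 lay within the KO range, and the log2 fold change of 0.63 did not pass the test (SE 0.325, adjusted p = 0.199).

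Agbl4 (chr4:110397661-111664324, plus strand), a carboxypeptidase that shortens glutamate chains, had 9.80, 7.27 and 6.76 CPM in WT and 23.5, 20.7 and 14.1 CPM in Xap5l KO. The groups were apart, and the log2 fold change was 1.29 (SE 0.254, adjusted p = 0.0182, edgeR, Benjamini-Hochberg adjustment). Agbl5 (chr5:30888694-30906965, plus strand), which removes the glutamate at the branch point, was the most abundant carboxypeptidase per kilobase. It had 212, 106 and 123 CPM in WT and 292, 312 and 134 CPM in Xap5l KO, so KO replicate 3 fell inside the WT range, and the log2 fold change of 0.75 did not pass (SE 0.372, adjusted p = 0.188). Of the exonic bases of the upregulated genes, 7.67% of Ttll8 and 5.61% of Ttll3 overlap another gene on the same strand (AC117700.1 and Arpc4), and 3.7% of Ttll9 and 4.97% of Tuba3a one on the opposite strand (Gm14199 and 4930417O13Rik). The 3 remaining carboxypeptidases had log2 fold changes of -0.25 (Agbl1), 0.27 (Agbl2) and 0.70 (Agbl3), none past the test.

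Tuba3a (chr6:125278274-125286042, minus strand) encodes the testis alpha-tubulin and was the alpha-tubulin with the highest level per kilobase in sperm. Its level was 146, 100 and 107 CPM in WT and 292, 341 and 158 CPM in Xap5l KO, and KO replicate 3 was only slightly above WT replicate 1. The log2 fold change was 1.16 (SE 0.314, adjusted p = 0.0429). Tuba3b (chr6:145615757-145621479, plus strand), with the same 60-base tail, had 129, 80.2 and 78.5 CPM in WT and 150, 149 and 111 CPM in Xap5l KO. These groups overlapped, with a log2 fold change of 0.51 (SE 0.262, adjusted p = 0.2). With both genes summed into one entry, the log2 fold change was 0.91 and the adjusted p-value 0.0747 (edgeR, Benjamini-Hochberg adjustment), so the call of Tuba3a was not shared by the sum. Tubb4b (chr2:25222160-25224702, minus strand), the main beta-tubulin of axonemes, had 310, 231 and 253 CPM in WT and 530, 556 and 392 CPM in Xap5l KO. Its groups did not overlap, and its log2 fold change of 0.90 passed the adjusted p-value but not the fold change threshold (SE 0.257, adjusted p = 0.0498).

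**Figure D2:**
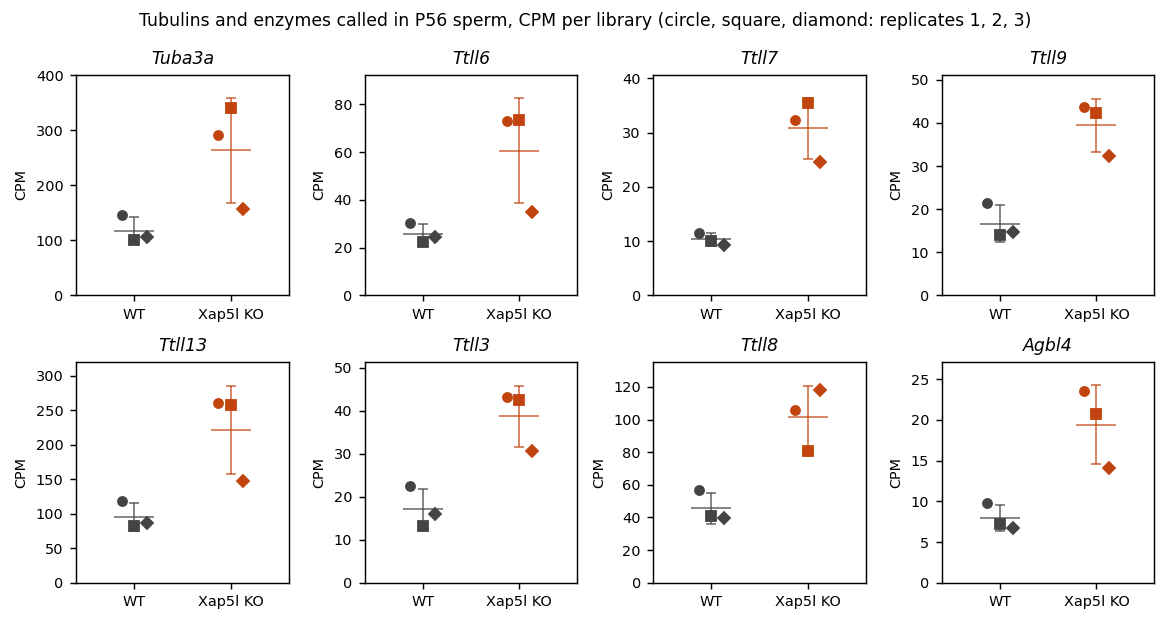
CPM in each of the 3 WT and 3 Xap5l KO sperm libraries for the 8 upregulated genes, with horizontal bars for the mean and error bars for the SD. In each panel the KO points lie above the WT points, and in 7 of the 8 panels KO replicate 3 (diamond) is the lowest KO point.

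Ttll4 (chr1:74661745-74703730, plus strand), a glutamylase that starts chains with a preference for beta-tubulin, was the other gene that passed the adjusted p-value alone. It had 16.4, 20.4 and 18.2 CPM in WT and 34.5, 32.9 and 28.1 CPM in Xap5l KO, with no overlap and a log2 fold change of 0.80 (SE 0.196, adjusted p = 0.0325). Including these 2 genes, 10 of 42 genes were higher at an adjusted p-value under 0.05 without a fold change threshold, against 9.02% of all genes. Ttll5 (chr12:85824659-86061893, plus strand), a glutamylase of alpha-tubulin, is mentioned because its call depended on the setting, and it was chosen for this after its values were seen. Its level was 38.4, 33.3 and 29.7 CPM in WT and 97.5, 101 and 34.2 CPM in Xap5l KO. KO replicate 3 lay among the WT libraries while the other KO libraries were far above them, and the log2 fold change was 1.19 (SE 0.365, adjusted p = 0.0591). Without KO replicate 3 it was 1.63 with an adjusted p-value of 0.00149, and DESeq2 called it with all libraries, with an adjusted p-value of 0.00615.

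The tubulins that make up other microtubules did not pass the test in sperm. Tubg1, the main gamma-tubulin, had 13.7, 11.2 and 13.6 CPM in WT and 13.3, 11.7 and 6.93 CPM in Xap5l KO, which overlap, and a log2 fold change of -0.27 (SE 0.26, adjusted p = 0.475). Tubd1, delta-tubulin, had 3.97, 5.99 and 4.64 CPM in WT and 6.31, 7.67 and 5.87 CPM in Xap5l KO, which also overlap, with a log2 fold change of 0.44 (SE 0.24, adjusted p = 0.22). The 7 gamma-tubulin and ring genes ranged from -0.70 to 0.56 and the 7 tested beta-tubulins from -0.80 to 0.90 in log2 fold change. Tubb5, a broadly expressed beta-tubulin, had all KO libraries below all WT libraries, at 23.7 to 36.5 CPM against 44.6 to 51.3 CPM, with a log2 fold change of -0.57 and an adjusted p-value of 0.105 (edgeR, Benjamini-Hochberg adjustment). Ttll12, the more abundant of the other 2 Ttll genes, was at 7.86, 8.22 and 10.4 CPM in WT and 6.14, 6.27 and 4.58 CPM in Xap5l KO. Its groups did not overlap either, and the log2 fold change was -0.64 (SE 0.227, adjusted p = 0.0851). In all, 16 of the 42 genes (38.1%) had groups that did not overlap, while the share over all tested genes was 38.3%. Tubb1, the beta-tubulin of platelets, was left untested by the low-count filter, with 24, 6 and 17 counts in WT and 0, 0 and 8 in Xap5l KO.

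The sperm calls rested on particular libraries. Leaving out any one of WT replicate 2, WT replicate 3 and KO replicate 2 left 0 of these genes upregulated, and only Ttll7 was called when KO replicate 1 was left out. Over the whole table, the former 3 fits called 1 upregulated gene each and the latter 483. Without Xap5l KO replicate 3, 12 of these genes were upregulated and Tubb1 was downregulated, and without WT replicate 1, 10 were upregulated. Across the 6 fits the log2 fold changes of the 8 genes stayed between 0.93 (Tuba3a, without KO replicate 2) and 1.79 (Ttll7, without KO replicate 3). None of the 8 passed an adjusted p-value of 0.01, nor did any other tested gene.

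In P16 testes, of the 41 tested entries, 13 were downregulated and 1 was upregulated (the same test and thresholds, adjusted over 16821 tested entries). The downregulated entries are 31.7% of those tested, against 10.9% over all entries, and 4.15% of all entries were upregulated. They were all 4 tested carboxypeptidases (Agbl2 to Agbl5), 4 of 8 glutamylases (Ttll5, Ttll6, Ttll9 and Ttll13), 1 of 3 glycylases (Ttll8), all 3 entries of Tuba3a and Tuba3b, and epsilon-tubulin (Tube1). The median log2 fold change was -0.42 over the 41 entries and -0.01 over all entries. The WT libraries were not alike in these genes: WT replicate 3 was the lowest WT library for each of the downregulated entries except Tube1, though still above every Xap5 cKO library. Pachytene markers were lowest in the same WT library and in all Xap5 cKO libraries, as given above, and whether they account for these differences was not tested.

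Agbl2 (chr2:90782727-90834437, plus strand), a carboxypeptidase of long glutamate chains, had the largest fall. It stood at 103, 107 and 57.5 CPM in WT and at 3.82, 4.87 and 5.68 CPM in Xap5 cKO. The lowest WT library was still far above the highest cKO library, and the log2 fold change was -4.21 (SE 0.262, adjusted p = 1.09e-05, edgeR, Benjamini-Hochberg adjustment), that is, 18.6-fold higher in WT. Agbl4 was at 8.34, 8.31 and 3.0 CPM in WT and 0.404, 0.205 and 0.729 CPM in Xap5 cKO, with a log2 fold change of -3.87 (SE 0.543, adjusted p = 0.000349). The cKO values rest on 13, 7 and 24 counts.

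Agbl5 was the most abundant carboxypeptidase per kilobase in testes too. It had 259, 250 and 154 CPM in WT and 42.2, 37.9 and 42.9 CPM in Xap5 cKO, a log2 fold change of -2.43 (SE 0.179, adjusted p = 1.85e-05). Agbl3 (chr6:34780432-34859459, plus strand), which also shortens glutamate chains, fell least of the 4, from 51.4, 54.2 and 38.7 CPM to 13.4, 20.2 and 25.5 CPM, a log2 fold change of -1.29 (SE 0.221, adjusted p = 0.00108). None of the 4 carboxypeptidases overlapped between genotypes. Of the exonic bases of Agbl5, 9.6% overlap Ost4 on the opposite strand, and since the library kit does not mark strand, reads there cannot be assigned to one gene.

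Among the glutamylases, the chain-lengthening pair fell most. Ttll13 had 62.8, 67.9 and 34.4 CPM in WT and 6.44, 7.01 and 8.35 CPM in Xap5 cKO, with a log2 fold change of -2.92 (SE 0.25, adjusted p = 3.06e-05). Ttll6 had 22.9, 19.1 and 9.73 CPM in WT and 3.48, 3.49 and 2.79 CPM in Xap5 cKO, with a log2 fold change of -2.40 (SE 0.31, adjusted p = 0.000219). In both, WT replicate 3 was at a lower level than the other WT libraries by more than the whole range of the cKO libraries. Ttll5 had 139, 127 and 93.3 CPM in WT and 40.9, 42.6 and 46.8 CPM in Xap5 cKO, a log2 fold change of -1.46 (SE 0.138, adjusted p = 4.66e-05). For Ttll9 the levels were 13.2, 11.9 and 8.51 CPM in WT and 5.22, 5.34 and 4.53 CPM in Xap5 cKO, a log2 fold change of -1.15 (SE 0.214, adjusted p = 0.00169). The groups were apart in both genes.

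The other glutamylases were not called. Ttll1, the catalytic subunit of the tubulin polyglutamylase complex, was lower below the fold change threshold, at 20.1, 18.5 and 12.8 CPM in WT and 11.5, 8.04 and 9.42 CPM in Xap5 cKO (log2 fold change -0.83, SE 0.213, adjusted p = 0.0095). Ttll4 had the highest level per kilobase of the class in testes, with 212, 214 and 206 CPM in WT and 232, 236 and 215 CPM in Xap5 cKO. Its cKO libraries lay just above its WT libraries, and the log2 fold change of 0.11 did not pass (SE 0.0576, adjusted p = 0.137). Ttll7 and Ttll11 had overlapping groups and log2 fold changes of 0.30 and 0.25, with adjusted p-values of 0.217 and 0.282 from edgeR, Benjamini-Hochberg adjustment.

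Of the glycylases, Ttll8 was the most abundant per kilobase in WT testes and the least abundant in Xap5 cKO testes. Its levels were 48.9, 40.3 and 21.5 CPM in WT and 1.87, 2.41 and 3.43 CPM in Xap5 cKO, from 60, 82 and 113 counts in the cKO libraries. The groups were far apart, with a log2 fold change of -3.84 (SE 0.34, adjusted p = 3.47e-05) and a level 14.3-fold higher in WT. Ttll3, the glycylase of the same initiating type, had overlapping groups at 7.06 to 8.56 CPM in WT and 5.86 to 8.01 CPM in Xap5 cKO, with a log2 fold change of -0.20 and an adjusted p-value of 0.416 (edgeR, Benjamini-Hochberg adjustment). The chain-lengthening Ttll10 had 1.42 to 3.16 CPM in WT and 3.07 to 3.52 CPM in Xap5 cKO, and its groups overlapped as well.

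**Figure D3:**
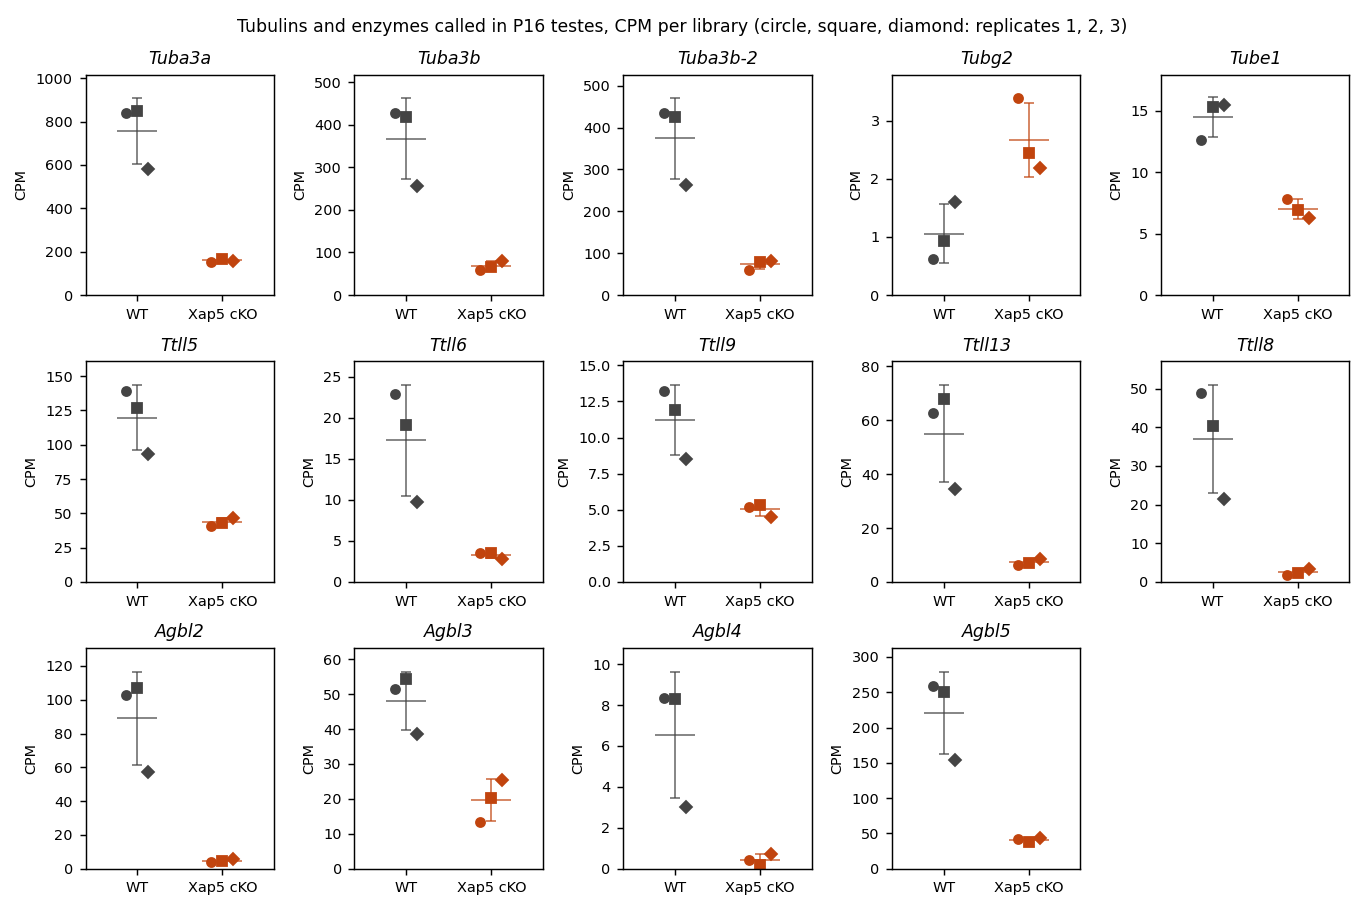
CPM in each of the 3 WT and 3 Xap5 cKO testis libraries for the 14 called entries, with horizontal bars for the mean and error bars for the SD. The 13 downregulated entries show all cKO points below all WT points, with WT replicate 3 (diamond) the lowest WT point in 12 of them, and Tubg2 shows the reverse order at 0.625 to 3.39 CPM.

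Tuba3a was the most abundant alpha-tubulin per kilobase in WT testes, at 840, 847 and 583 CPM, and fell to 153, 168 and 158 CPM in Xap5 cKO. The log2 fold change was -2.25 (SE 0.134, adjusted p = 1e-05, edgeR, Benjamini-Hochberg adjustment). Tuba3b had 427, 418 and 257 CPM in WT and 59.4, 66.2 and 80.5 CPM in Xap5 cKO, with a log2 fold change of -2.42 (SE 0.194, adjusted p = 2.45e-05). The entry Tuba3b-2 had 434, 426 and 263 CPM in WT and 60.8, 79.8 and 81.6 CPM in Xap5 cKO (log2 fold change -2.34, SE 0.193, adjusted p = 2.68e-05). Library by library it was close to Tuba3b, so these 2 entries are not independent evidence, although the numbers of testis entries count both. All 3 entries had WT libraries well above the cKO libraries.

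The Tuba1 genes, the alpha-tubulins of most cell types, moved slightly the other way. Tuba1b was at 490, 461 and 520 CPM in WT and 623, 636 and 574 CPM in Xap5 cKO (log2 fold change 0.32, SE 0.0632, adjusted p = 0.0025). Tuba1c was at 158, 155 and 174 CPM in WT and 207, 208 and 186 CPM in Xap5 cKO (log2 fold change 0.30, adjusted p = 0.00624). Tuba1a was at 479, 453 and 491 CPM in WT and 545, 551 and 528 CPM in Xap5 cKO (log2 fold change 0.19, adjusted p = 0.0126). In each the cKO libraries were all higher, but the shift was well below a fold change of 2, and the adjusted p-value of Tuba1a rose to 0.0524 without WT replicate 2 (all from edgeR, Benjamini-Hochberg adjustment).

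Beta-tubulins showed the same split on a smaller scale. Tubb4b, the most abundant per kilobase, had 713, 679 and 635 CPM in WT and 338, 379 and 432 CPM in Xap5 cKO. Its groups did not overlap, and the log2 fold change was -0.82 (SE 0.0885, adjusted p = 8.53e-05), below the fold change threshold. Tubb5 had 259, 258 and 283 CPM in WT and 312, 324 and 291 CPM in Xap5 cKO, a log2 fold change of 0.21 (SE 0.0636, adjusted p = 0.0192), and Tubb5-2 and Tubb5-3 had 0.21 and 0.26 with adjusted p-values of 0.0257 and 0.0137. These 3 entries had cKO libraries just above WT libraries, and each lost its adjusted p-value when some single libraries were left out, with values up to 0.0984 (Tubb5-2 without WT replicate 1), 0.072 (Tubb5 without WT replicate 2) and 0.0573 (Tubb5-3 without WT replicate 1). In WT, Tubb5-2 had 94.3, 97.4 and 107 CPM and Tubb5-3 had 95.5, 99.5 and 109 CPM. Being this close, they are not independent evidence either, although the numbers of testis entries count both. Tubb3, the beta-tubulin known from neurons, was at 181 to 194 CPM in WT and 171 to 206 CPM in Xap5 cKO, with overlap and a log2 fold change of 0.01.

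Tube1 (chr10:39133976-39152542, plus strand), epsilon-tubulin of centrioles, was at 12.6, 15.3 and 15.5 CPM in WT and 7.83, 6.90 and 6.26 CPM in Xap5 cKO, with a log2 fold change of -1.05 (SE 0.173, adjusted p = 0.00087). It was close to the fold change threshold and fell under it at -0.99 without WT replicate 3 and -0.98 without Xap5 cKO replicate 3. Tubd1 had 21.4, 19.6 and 21.9 CPM in WT and 11.8, 13.1 and 12.8 CPM in Xap5 cKO (log2 fold change -0.74, SE 0.127, adjusted p = 0.0011). Both genes were apart between genotypes. Unlike the enzymes above, neither had WT replicate 3 as its lowest WT library.

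The gamma-tubulin group was mostly lower by less than a fold change of 2. Tubgcp2, the most abundant ring gene per kilobase, had 98.6, 110 and 83.6 CPM in WT and 51.6, 49.1 and 55.2 CPM in Xap5 cKO, with a log2 fold change of -0.91 (SE 0.106, adjusted p = 0.000129). Tubg1 had 40.0, 43.0 and 36.0 CPM in WT and 27.3, 31.2 and 30 CPM in Xap5 cKO, with a log2 fold change of -0.42 (SE 0.105, adjusted p = 0.00798). Groups did not overlap in either. The ring genes Tubgcp6, Tubgcp4 and Tubgcp3 had log2 fold changes of -0.49, -0.46 and -0.24 with adjusted p-values of 0.00119, 0.0133 and 0.0438 from the same test, and Tubgcp5 had overlapping groups and -0.07. Of the exonic bases of Tubgcp4, 25.4% overlap Trp53bp1 on the opposite strand. Tubg2 (chr11:101155907-101161787, plus strand), the second gamma-tubulin gene, known mainly from brain, was the upregulated one, at 0.625, 0.933 and 1.61 CPM in WT and 3.39, 2.44 and 2.19 CPM in Xap5 cKO, from 21 to 58 counts per WT and 72 to 109 per cKO library. Its log2 fold change was 1.33 (SE 0.415, adjusted p = 0.0232, edgeR, Benjamini-Hochberg adjustment), and leaving out WT replicate 1, WT replicate 2 or Xap5 cKO replicate 1 ended the call.

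Ttll12 was higher in all Xap5 cKO libraries, at 113, 104 and 108 CPM against 88.5, 87.4 and 91.9 CPM in WT, with a log2 fold change of 0.28 (SE 0.0647, adjusted p = 0.00539). Without a fold change threshold, 21 of the 41 entries were lower and 8 higher at an adjusted p-value under 0.05 (edgeR, Benjamini-Hochberg adjustment), against 28.1% and 25.0% of all entries. Groups did not overlap in 31 entries (75.6%), and in 62.3% of all entries. The entries left untested for low counts were Tuba8, Tubal3, Tubb1, Ttll2 and Agbl1, with at most 15 counts in any testis library. Of the 13 downregulated entries, 12 were called in each of the 6 fits that left out 1 library, with Tube1 as the exception. Without WT replicate 3, Ttll1 and Tubgcp2 were called in addition, at log2 fold changes of -1.0 and -1.01.

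The comparisons share no library, and 38 of these genes were tested in both. Of the 8 upregulated in Xap5l KO sperm, 6 were downregulated in Xap5 cKO testes: Agbl4, Ttll6, Ttll8, Ttll9, Ttll13 and Tuba3a. They are 75.0% of the sperm calls and 50.0% of the 12 testis calls among the 38 genes. Over all 13959 genes tested in both, 376 were called in these directions, which is 49.3% of 763 and 24.9% of 1512. Ttll7 and Ttll3 were upregulated in sperm only by these calls, with log2 fold changes of 0.30 and -0.20 in testes, and Agbl2 had the largest fall in testes beside a log2 fold change of 0.27 in sperm. The sperm side of this count carries the dependence on single libraries given above. Tissue, age and gene differ between the comparisons, so the difference between them was not tested.

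The share of each isotype in its class was computed from CPM per kilobase of exonic sequence, as a description with no test. In WT sperm, Tuba3a and Tuba3b together made up 53.7%, 48.1% and 41.8% of the alpha-tubulin transcript level in the 3 libraries, and in Xap5l KO sperm 61.6%, 71.2% and 66.1%. The means were 47.8% ± 5.93 and 66.3% ± 4.79 (SD, n = 3), and no KO library reached down to a WT library. The share of Tuba1a, Tuba1b and Tuba1c was 44.8% ± 7.44 in WT and 28.4% ± 3.12 in Xap5l KO sperm (SD, n = 3). In testes the Tuba3 share was 57.1%, 58.4% and 45.8% in WT and 15.6%, 16.7% and 18.0% in Xap5 cKO, with means of 53.7% ± 6.92 and 16.8% ± 1.19 (SD, n = 3). The Tuba1 share was 46.0% ± 6.90 in WT and 82.9% ± 1.22 in Xap5 cKO (SD, n = 3). The class was thus divided between Tuba3 and Tuba1 genes in WT testes, while Tuba1 genes held most of it in every Xap5 cKO library. Sertoli cell markers were also higher in those libraries, as given above.

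**Figure D4:**
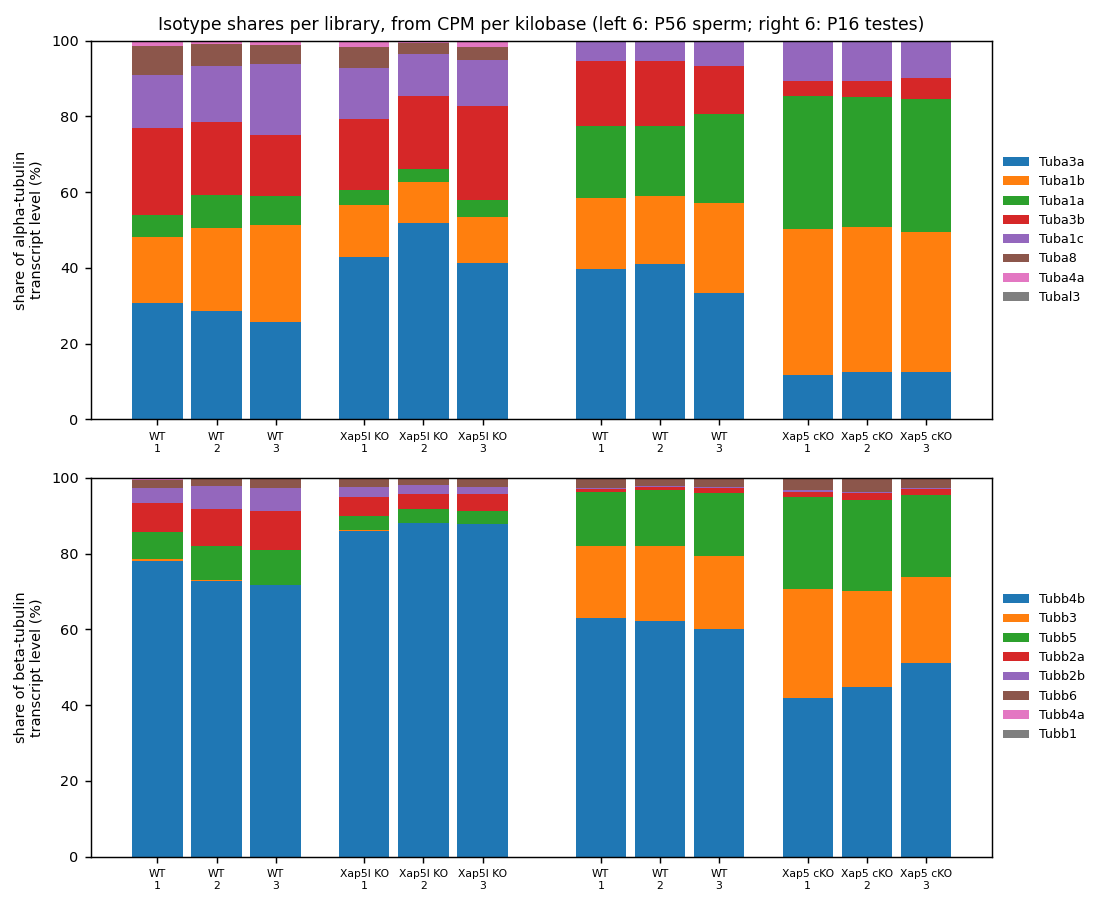
Share of each isotype in the alpha-tubulin (top) and beta-tubulin (bottom) transcript level of each of the 12 libraries, in percent, from CPM per kilobase, as stacked bars that sum to 100. Entries with an added number are left out. Tuba3a with Tuba3b takes 41.8% to 58.4% in WT libraries of both tissues, 61.6% to 71.2% in Xap5l KO sperm and 15.6% to 18.0% in Xap5 cKO testes, and Tubb4b is the largest beta-tubulin in every library.

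Tubb4b was the largest share of beta-tubulin everywhere. In sperm it held 78.1%, 72.9% and 71.6% of the class in WT, against 86.1%, 88.1% and 87.8% in Xap5l KO. In testes it held 63.0%, 62.1% and 60.2% in WT, against 42.0%, 44.7% and 51.1% in Xap5 cKO. Within each tissue the genotypes did not overlap, in opposite directions. Tubb3 held 19.3% ± 0.491 in WT testes and 25.6% ± 3.02 in Xap5 cKO testes (SD, n = 3), and at most 0.419% in any sperm library. Tubb5 held 15.3% ± 1.31 and 23.3% ± 1.51 in testes and 8.38% ± 1.05 and 3.50% ± 0.201 in sperm, WT first (SD, n = 3). Tuba8, whose tail ends in phenylalanine, was at 20.0 to 56.3 CPM in sperm and had at most 11 counts in any testis library. The tables were normalized separately, so levels in sperm and testes are set side by side and were not tested against each other.

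Other genes of tubulin biology were read from 3 lists. Among 12 partners of the tail modifications, 1 was upregulated in sperm, where 7.59% of all genes were, and 2 were downregulated in testes, where 10.9% of all entries were. Lrrc49, a subunit of the polyglutamylase complex, had 9.16, 6.63 and 8.09 CPM in WT and 25.1, 30.4 and 11.8 CPM in Xap5l KO sperm, where the groups did not overlap and KO replicate 3 was again the lowest (log2 fold change 1.5, SE 0.33, adjusted p = 0.0236, edgeR, Benjamini-Hochberg adjustment). In testes, Agtpbp1, the founding carboxypeptidase of the Agbl family, fell from 112, 110 and 87.1 CPM to 38.4, 44.7 and 45.2 CPM (log2 fold change -1.27, adjusted p = 3.71e-05), and Tpgs2, another subunit of the complex, from 87.6, 80.4 and 77.0 CPM to 37.3, 40.7 and 40.2 CPM (log2 fold change -1.05, adjusted p = 2.42e-05). All WT libraries were above all cKO libraries in both.

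Among 16 tubulin folding factors, 0 were called in sperm by edgeR, 0 at an unadjusted p-value under 0.05 with the same fold change and 0 by DESeq2, and 2 were downregulated in testes, against the same 10.9%. Cct6b, the testis form of a subunit of the chaperonin that folds tubulin, had 37.0, 33.0 and 13.4 CPM in WT and 1.62, 1.61 and 1.52 CPM in Xap5 cKO testes (log2 fold change -4.13, adjusted p = 3.91e-05). Tcp1, a subunit of the same chaperonin in all cells, had 793, 781 and 573 CPM in WT and 292, 300 and 323 CPM in Xap5 cKO (log2 fold change -1.23, adjusted p = 4.41e-05, edgeR, Benjamini-Hochberg adjustment). The groups were apart, with WT replicate 3 the lowest WT library in both. The other chaperonin subunits Cct2, Cct3, Cct4, Cct5, Cct6a, Cct7 and Cct8 were lower in Xap5 cKO testes by less than a fold change of 2, with log2 fold changes of -0.94 to -0.49 and adjusted p-values of 1.27e-05 to 0.000127 (edgeR, Benjamini-Hochberg adjustment). Among 14 partners of gamma-tubulin and augmin, the complex that branches microtubules, 1 was upregulated in sperm, where 7.59% of all genes were. It was Haus5, with 4.58, 4.28 and 4.12 CPM in WT and 12.4, 10.4 and 10.1 CPM in Xap5l KO (log2 fold change 1.34, adjusted p = 0.0122). In testes 3 were downregulated, against the same 10.9%. These augmin subunits, Haus1, Haus4 and Haus6, had log2 fold changes of -1.22, -1.22 and -1.07 and adjusted p-values of 0.000363, 3.01e-05 and 1.78e-05. Of the other augmin subunits, Haus2, Haus3, Haus5 and Haus8 had log2 fold changes of -0.95 to -0.37. Haus7 went the other way, at 0.52 (adjusted p = 0.000175, edgeR, Benjamini-Hochberg adjustment). The median log2 fold changes of the 3 lists were 0.12, 0.00 and 0.01 in sperm and -0.11, -0.53 and -0.64 in testes, in the order given.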

How the data were processed

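The authors purified poly(A) RNA from mature sperm (P56) and testes (P16), sequenced paired-end reads, mapped them to GRCm38/mm10 with HISAT2 2.1.0 and assembled them with StringTie. Per the labels, FastQC 0.11.2, Trimmomatic 0.36 and DESeq2 1.12.4 were also used. They deposited raw counts per gene, as whole numbers, in 1 table per tissue. The counting tool, the use of strand and the treatment of reads that map to several genes were not given in the sources used here, and the library kit does not mark strand.

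Samples were grouped by their labels into 4 groups of 3, and the tables were analysed separately. Entries were filtered with edgeR's filterByExpr, scaled by TMM and compared by genotype alone (edgeR's quasi-likelihood F test), adjusted by Benjamini-Hochberg over all tested entries. An adjusted p-value under 0.05 with a fold change above 2 was a call. The common dispersion gave a biological coefficient of variation of 0.287 (sperm) and 0.174 (testes). P-values cover the spread between these samples. For 3 against 3, the exact permutation test of one gene has a smallest p-value of 0.1 and was not used. CPM are counts scaled by library size and TMM factor, and group values are means ± SD. Levels were compared between genes only as CPM per kilobase of the union of annotated exons. Library totals of 32251198 to 52308452 counts limit the precision of genes with few counts, which are given as counts in the text.

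The genes named are every called gene, every gene past the adjusted p-value alone, the gene with the highest level per kilobase in each class, and called genes of 3 pathway lists. The genes, the lists and this rule were chosen with earlier results of these data known. Tubb5, Ttll5 and other genes given beside them as values lie outside the rule. The alternatives were other filters, scalings and thresholds, DESeq2, a replicate block, summed entries, another transcript length and leaving out each library. The code was tested on simulated data. Positions, exons and coding tails came from the GENCODE annotation of GRCm38, and promoters from RefSeq (GRCm38.p6). The tails of 2 isotypes are not reported here. Software versions were edgeR 4.0.16, DESeq2 1.42.0 and limma 3.58.1 in R 4.3.3, and Biopython 1.88, pandas 2.3.3 and matplotlib 3.10.9 in Python 3.11.15.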

Additional observations from a re-analysis of the deposited data

How the results depend on the processing

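In sperm, the count of 8 upregulated genes was between 7 (replicate block, or Tuba3a and Tuba3b summed) and 10 (no fold change threshold) under all planned settings that kept all libraries, except an adjusted p-value under 0.01, with 0. Leaving out 1 library gave 0 to 12, and 0 to 1 downregulated. In testes, 0 were upregulated at an adjusted p-value under 0.01 and 8 without a fold change threshold, where 21 were downregulated, while leaving out 1 library gave 0 to 1 upregulated and 12 to 14 downregulated. The other planned settings gave 1 upregulated and 11 to 13 downregulated, with 13 downregulated under DESeq2 and under the replicate block. Same-numbered replicates did not deviate together (correlations of -0.0809 to 0.149 in sperm and -0.0141 to 0.0125 in testes), so the numbers were not taken as pairs. The replicate block took the adjusted p-value of Tuba3a in sperm to 0.064, of Tubb4b to 0.079 and of Ttll4 to 0.065, and in testes of Tubb5 to 0.0558, of Tubb5-2 to 0.0572 and of Tubgcp3 to 0.0671. With library size alone those of Tubb4b and Ttll4 in sperm were 0.0635 and 0.151, and that of Tubgcp3 in testes was 0.0551, or 0.052 with RLE size factors. Without 1 library, the log2 fold change took the opposite sign in at least 1 fit for 8 of 42 genes in sperm, among them Tubg1 at -0.47 (without Xap5l KO replicate 1) to 0.04 (without Xap5l KO replicate 3), and for 3 of 41 entries in testes (Tubb3, Tubb4a and Tubb6). None of these had passed an adjusted p-value of 0.05 with all libraries. The cause of these shifts was not tested.

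With entries carrying an added number summed, the Tuba3 share in Xap5 cKO testes was 20.6%, and the Tubb4b share was 55.4% in WT and 39% in Xap5 cKO testes. With the longest annotated transcript as length, the Tubb4b share was 65.2% in WT testes and 88.7% in Xap5l KO sperm. With 3 libraries a group, genes such as Tubg2 and Agbl4, with under 30 counts in some libraries, are measured less precisely than the tubulins.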

Other observations

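The pseudogene Tubb4b-ps1, left out by its name, had 20.3, 16.4 and 13.8 CPM in WT sperm and 41.7, 35.6 and 21.5 CPM in Xap5l KO sperm. The groups did not overlap, and the log2 fold change was 0.97 (standard error 0.274, adjusted p = 0.0484, edgeR, Benjamini-Hochberg adjustment), beside 0.90 for Tubb4b, with which it shares sequence. Whether its reads came from Tubb4b was not tested. Tubb4b-ps2 had 5 to 20 counts in any sperm library and was not tested.

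Xap5l itself (Fam50b) was also measured in the testis comparison, where Xap5 is the deleted gene. Its counts were 532, 539 and 197 in the WT and 6, 0 and 7 in the Xap5 cKO libraries, so that WT replicate 3 was the lowest WT library, as in 12 of the 13 downregulated tubulin and enzyme entries. The log2 fold change was -6.48 (standard error 0.69, adjusted p = 8.09e-05, edgeR, Benjamini-Hochberg adjustment).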
